A study of Mus musculus with 28 samples.

Results

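Sfmbt2 encodes a Polycomb-associated protein with MBT domains, and the clone AL772216 of mouse chromosome 2 gives its name to a series of small RNA rows that lie next to it in the tables. The rows were chosen by name: Sfmbt2 itself and every row named AL772216 followed by a dot and a number, which are 44 of the 37583 rows (1 for Sfmbt2 and 43 clone rows). The group of rows had been selected on measured values of these libraries, namely the differences of Eed null and K754M stem cells and of Eed null embryoid bodies from wild type. Values of those 3 comparisons are therefore given as a description with no p-value, and the other 7 comparisons are tested. Where counts of passing rows are printed for those 3, they are no test of the clone rows.

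As background, Sfmbt2 is an imprinted gene, read from the paternal copy in extraembryonic tissues, and a long intron of the mouse gene holds a large cluster of microRNA hairpins of the miR-297, miR-466, miR-467 and miR-669 families. A microRNA hairpin inside an intron is cut out of the host transcript and processed to a short RNA that lowers the output of matching messages. PRC2 is the Polycomb complex that methylates lysine 27 of histone H3, and Eed is a subunit that it needs. Elongin A, encoded by EloA, is the active subunit of a factor that raises the speed of RNA polymerase II.

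RNA depleted of ribosomal RNA was sequenced in 28 libraries of mouse embryonic stem cells (mESCs) and of embryoid bodies (EBs), the aggregates that form as the cells differentiate, collected 5 days after the cytokine LIF was withdrawn. The CJ7 line had 4 genotypes at each stage, with 2 libraries each: wild type, Eed null, and the EloA variants K754M and K754R. The CCE line was given as wild type and EloA null mESCs, with 3 libraries each, and as 3 groups of 2 EB libraries: wild type, pair A and pair B. The labels of pairs A and B contradict each other (the titles of pair A say null and its column names heterozygous, and those of pair B the reverse), so no genotype was assigned to either. All groups come from cells cultured over mouse fibroblast feeders in LIF plus the inhibitors PD0325901 and CHIR99021, with the feeders depleted by plating before lysis. Whether replicate libraries came from separate cultures or clones is not stated, so p-values measure the spread between libraries, which may be technical. In bulk RNA, fewer cells that express a gene and less RNA in each cell cannot be told apart.

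Levels are in RPKM, reads scaled by the length of the row and the depth of the library. Depth, estimated from the value of 1 read, ranged from about 11100000 to 18300000 reads in CJ7 mESCs, 24400000 to 46500000 in CCE mESCs, 28700000 to 40000000 in CJ7 EBs and 23700000 to 30900000 in CCE EBs. Eed RNA was 22.3 and 22.1 RPKM in Eed null mESCs against 105 and 119 in CJ7 wild type. Tceb3, the gene of Elongin A, was at 8.02, 6.33 and 6.17 RPKM in the 3 CCE mESC libraries labelled EloA null and at 11.7, 11.2 and 10.7 in CCE wild type, so these groups did not overlap but much of its RNA was still read, and whether those reads lie in the deleted part is not given in the sources used here. Pou5f1, the stem cell factor Oct4, ranged from 280.3 to 405.2 RPKM over the 14 mESC libraries.

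Of the 43 clone rows, 15 were matched by identifier in GENCODE M21, an annotation of the later mouse build GRCm38, where each is a microRNA gene. All 15 lie on the strand of Sfmbt2, in intron 10 of its 23-exon transcript, between 94.8 and 147 kb from the start of a gene 225 kb long. The other 28 were not matched, so their place is known here only through the clone's name. The 6 hairpins printed here are ones that the results turn on, from the GENCODE M21 transcript sequences, 5′ to 3′ on the strand of Sfmbt2, with each stretch of TGTGTG or its reverse complement CACACA in capitals and overlapping matches joined.
AL772216.38: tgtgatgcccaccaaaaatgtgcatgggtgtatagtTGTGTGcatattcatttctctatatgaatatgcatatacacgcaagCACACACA
AL772216.31: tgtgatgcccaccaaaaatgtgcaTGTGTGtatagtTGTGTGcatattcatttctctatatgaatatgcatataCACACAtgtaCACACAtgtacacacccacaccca
AL772216.30: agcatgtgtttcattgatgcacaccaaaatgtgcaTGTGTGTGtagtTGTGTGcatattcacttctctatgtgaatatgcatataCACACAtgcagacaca
AL772216.14: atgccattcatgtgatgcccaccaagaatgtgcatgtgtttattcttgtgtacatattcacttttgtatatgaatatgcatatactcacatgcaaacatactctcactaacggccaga
AL772216.1: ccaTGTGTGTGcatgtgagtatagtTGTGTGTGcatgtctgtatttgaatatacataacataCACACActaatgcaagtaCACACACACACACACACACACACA
AL772216.40: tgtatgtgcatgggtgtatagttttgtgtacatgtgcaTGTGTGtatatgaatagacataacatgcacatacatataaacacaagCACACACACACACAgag

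The 15 hairpins are 90 to 127 bases long with 29.5 to 43% G and C. One or the other repeat was in 14 of them, the exception being AL772216.14, and in 96.6% of the 119 microRNA genes of GENCODE M21 within Sfmbt2, against 15.1% of the 2083 microRNA genes elsewhere. Over the 105 pairs of hairpins the median identity was 60.9%, from 48.4 to 92%. AL772216.38 and AL772216.31 were 82.4% identical and shared a run of 50 bases, and 5 pairs shared a run of 30 bases or more. How the authors assigned reads that match several such copies is not given in the sources used here, so the value of any single clone row is uncertain, and the rows share sequence as well as an intron. The files also do not say whether strand was used in counting.

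Reads on the clone rows were few. Of the 43 rows, 10 were at 0 in all 28 libraries (AL772216.6, AL772216.11, AL772216.15, AL772216.20, AL772216.22, AL772216.24, AL772216.25, AL772216.26, AL772216.29 and AL772216.32), and none of these 10 was matched in GENCODE M21. Of the 33 rows with a read, 6 never reached 1 RPKM (AL772216.9, AL772216.10, AL772216.13, AL772216.19, AL772216.27 and AL772216.37), and 5 of the 33 had reads in Eed null libraries alone. The rows whose mean reached 5 RPKM in at least 1 group numbered 26. The lowest of these was AL772216.28, at 5.19 RPKM in its highest group, and the next row below was AL772216.17, at 1.48 RPKM. A whole library gave 33 to 1359 reads on the 43 rows together, against 285 to 19509 reads on Sfmbt2. One read was worth 0.171 RPKM on AL772216.16 in the deepest library and 0.903 RPKM on AL772216.30 in the shallowest. On AL772216.38, the shortest row with a read, it would be worth 1.01 RPKM in the shallowest library. A row at 0 or near 1 RPKM in stem cells thus rests on 0 to a few reads.

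**Figure D1:**
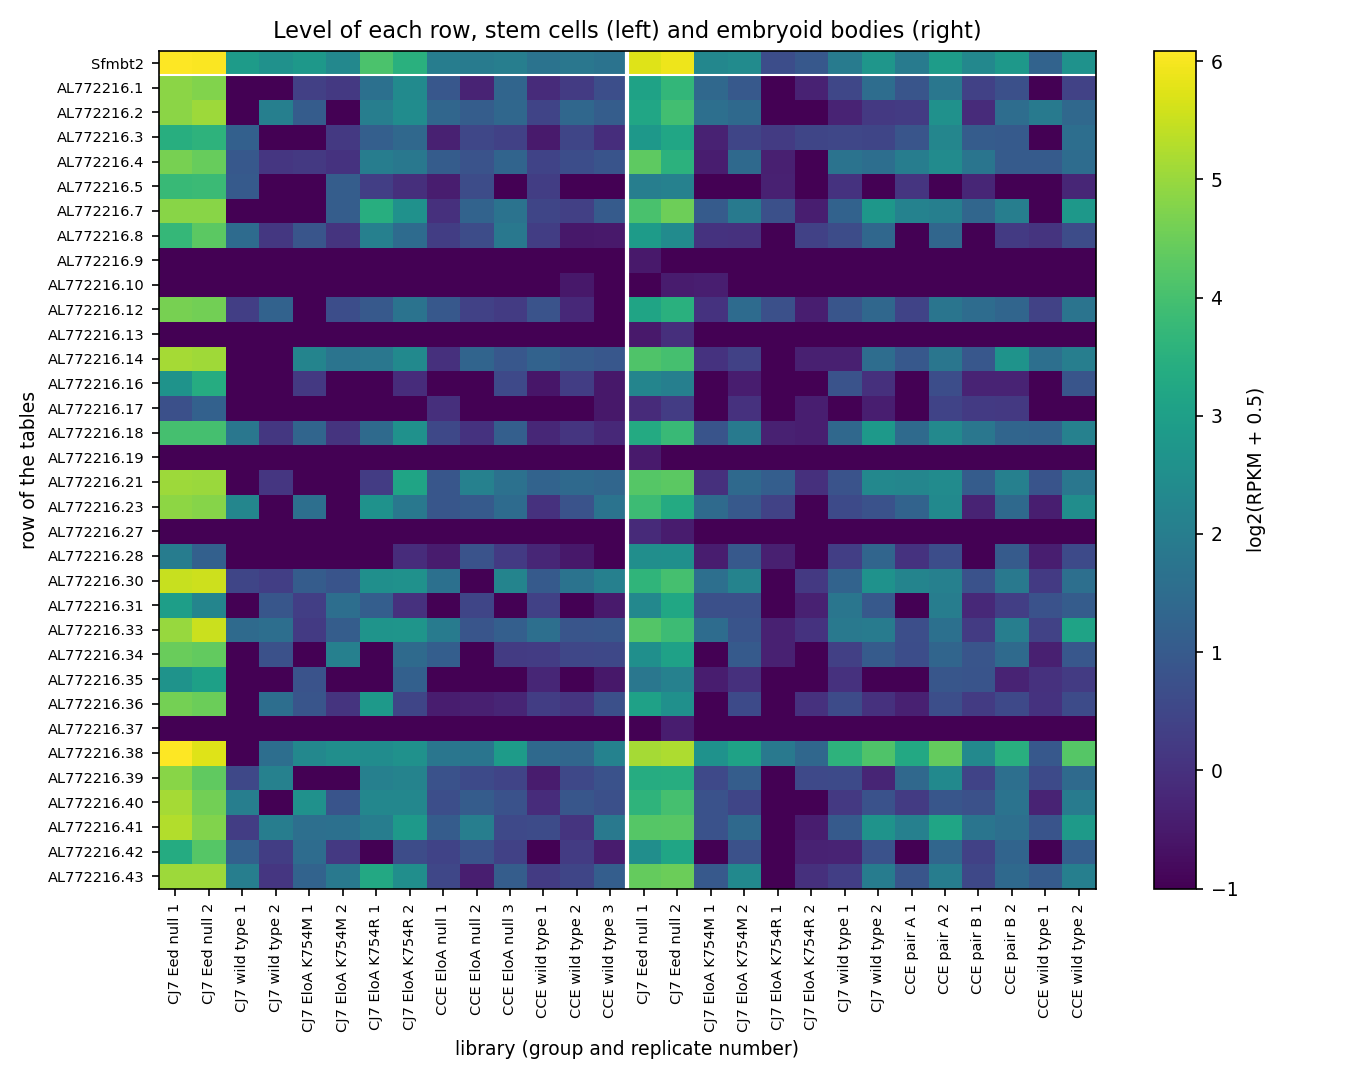
Level of Sfmbt2 and of the 33 clone rows with a read, as log2(RPKM + 0.5), in each library, with the 14 stem cell libraries on the left of the upright white line and the 14 embryoid body libraries on its right. At each stage the Eed null libraries hold the highest values of Sfmbt2 and of all 26 rows that reached a group mean of 5 RPKM. Only 6 of those 26 reached that mean outside Eed null, so this order is partly fixed by the cut-off. Another 6 rows stay under 1 RPKM throughout.

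Sfmbt2 was highest in Eed null cells at both stages. In mESCs the level reached 67.4 and 65.9 RPKM with Eed null, 16.3 and 10.9 in K754R, 6.95 and 5.55 in CJ7 wild type, and 6.41 and 4.46 in K754M. In CCE mESCs it was 3.50, 3.34 and 3.59 RPKM in EloA null and 2.77, 2.99 and 2.75 in wild type. The order of group means was Eed null (66.6 ± 1.07, SD, n = 2), K754R (13.6 ± 3.85, n = 2), CJ7 wild type (6.25 ± 0.992, n = 2), K754M (5.43 ± 1.38, n = 2), EloA null (3.48 ± 0.127, n = 3) and CCE wild type (2.83 ± 0.132, n = 3). Only CJ7 wild type and K754M overlapped among neighbours in that order.

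In EBs Sfmbt2 was 53.4 and 59.9 RPKM in Eed null, 3.36 and 6.06 in CJ7 wild type, 4.34 and 4.86 in K754M, and 1.08 and 1.43 in K754R. In CCE EBs it was 4.50 and 6.34 RPKM in pair B, 3.36 and 7.10 in pair A, and 1.89 and 5.57 in wild type. The 5 groups between Eed null (56.6 ± 4.63, SD, n = 2) and K754R (1.26 ± 0.242, n = 2) overlapped one another, with means from 3.73 to 5.42 RPKM. The tables of the 2 stages were normalised separately, so levels are set side by side across stages and not tested.

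The sequenced RNA was RNA depleted of ribosomal RNA. A read within the intron can come from Sfmbt2 RNA that still holds the intron, or from a hairpin. These sources cannot be told apart here, so the levels are not levels of processed microRNA. To set the clone rows beside Sfmbt2 on 1 scale, the reads of the 15 rows placed in the intron were summed. The sum was divided by their joint length and by depth. This pooled level was 25.7 RPKM (95% exact Poisson interval 23.7 to 27.9, covering counting error only) and 24.5 in Eed null mESCs, from 584 and 539 reads. It was 1.28 (0.810 to 1.92) and 1.13 RPKM in CJ7 wild type mESCs, from 23 and 25 reads, 1.86 and 1.33 in K754M and 3.27 and 3.37 in K754R. Both libraries of Eed null and of K754R lay above both wild type libraries. Those of K754M did so as well, but library 2 of K754M (interval 0.914 to 1.86, 33 reads) differed from wild type library 1 by less than counting error. In CCE mESCs the pooled level was 1.15, 1.03 and 1.82 RPKM in EloA null and 0.755, 1.07 and 1.33 in wild type, which overlapped.

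In EBs the pooled level was 10.5 and 12.1 RPKM in Eed null, from 684 reads in each library, 1.66 and 2.86 in CJ7 wild type, 1.32 and 1.90 in K754M and 0.321 and 0.461 in K754R, the last from 15 and 24 reads. Both Eed null libraries were above, and both K754R libraries below, the wild type pair, while K754M overlapped with it. In CCE EBs it was 1.64 and 4.17 RPKM in pair A, 1.19 and 2.59 in pair B and 0.915 and 3.23 in wild type, and the 3 groups overlapped.

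**Figure D2:**
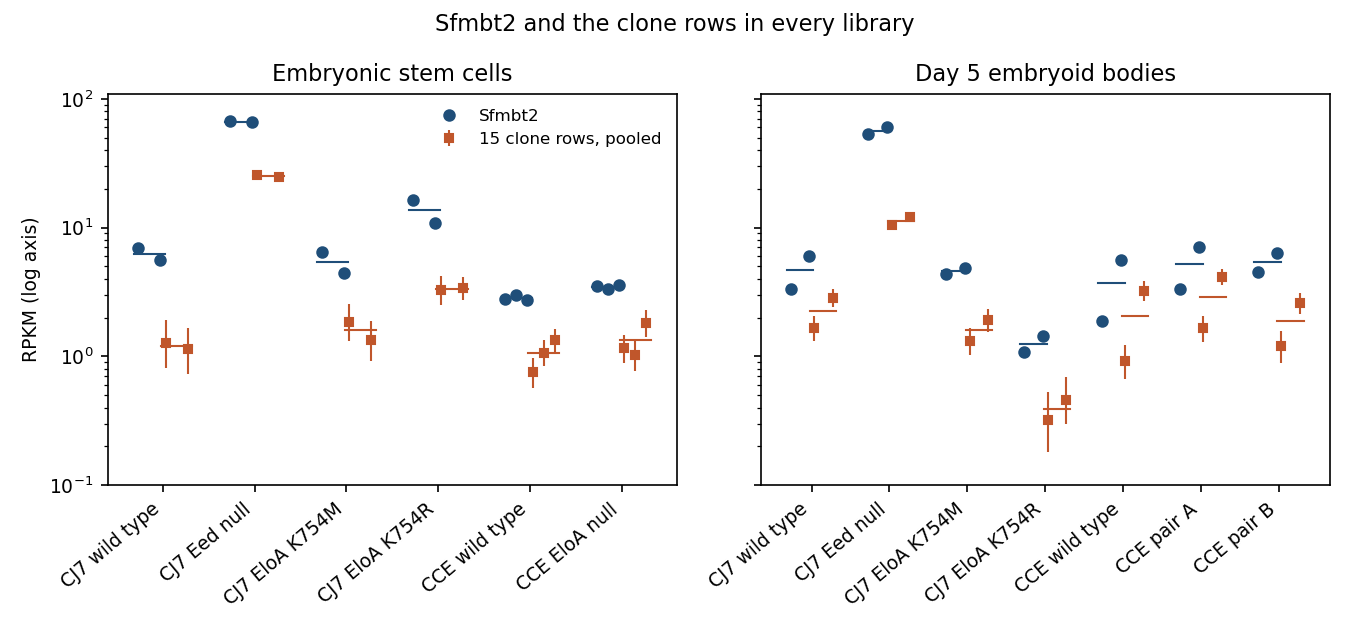
Level of Sfmbt2 (circles) and the pooled level of the 15 placed clone rows (squares, with 95% exact Poisson intervals of the reads) in each library, in RPKM on a log axis, by group in stem cells and embryoid bodies, with a line at each group mean. In Eed null mESCs Sfmbt2 is at 67.4 and 65.9 and the clone rows at 25.7 and 24.5, and in K754R embryoid bodies both are at their lowest.

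The fold between Eed null and wild type differed between Sfmbt2 and the clone rows, and in opposite directions at the 2 stages. In mESCs the ratio of group means was 10.7 for Sfmbt2 and 20.9 for the pooled clone rows, and in EBs it was 12.0 for Sfmbt2 and 5.00 for the clone rows. The pooled level per unit of Sfmbt2 was 0.382 and 0.372 in Eed null mESCs against 0.184 and 0.204 in wild type mESCs. In EBs it was 0.197 and 0.201 in Eed null against 0.494 and 0.472 in wild type. The Eed null libraries were thus above wild type in this ratio in mESCs and below it in EBs. Over the 12 other libraries of each stage the ratio ranged from 0.184 to 0.506 in mESCs (median 0.303) and from 0.266 to 0.587 in EBs (median 0.440). These ratios use the comparisons that selected the rows and carry no test.

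**Figure D3:**
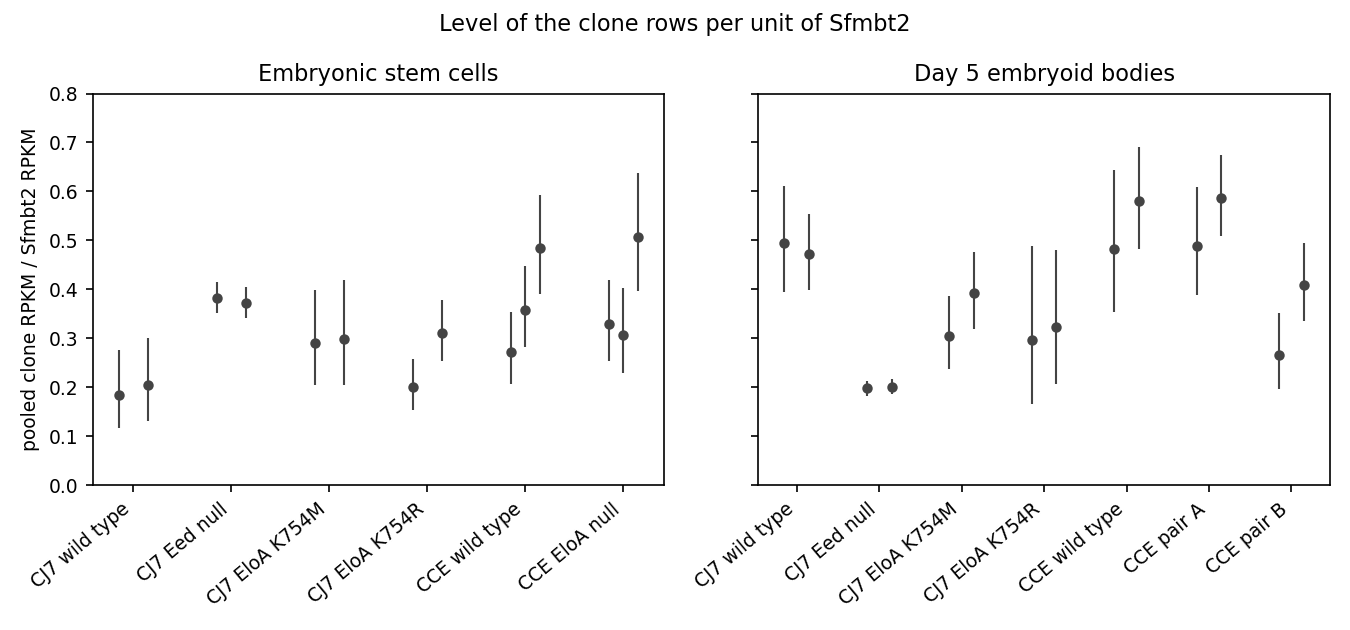
Pooled RPKM of the 15 placed clone rows divided by the RPKM of Sfmbt2 in each library, with 95% exact Poisson intervals of the clone reads, by group. Eed null libraries are near 0.377 in stem cells, above wild type at 0.194, and near 0.199 in embryoid bodies, below wild type at 0.483.

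Among single rows, AL772216.38 was the highest of the clone rows in Eed null cells at both stages. It was 67.6 and 53.1 RPKM in Eed null mESCs, 0 and 2.47 in CJ7 wild type, 4.46 and 5.14 in K754M and 4.97 and 5.54 in K754R. In EBs it was 34.8 and 36.7 RPKM in Eed null, 11.4 and 17.1 in wild type, 5.59 and 7.91 in K754M and 3.13 and 2.10 in K754R. In wild type CJ7 cells it was thus a row of 0 to 3 reads in mESCs and of 32 and 49 reads in EBs.

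AL772216.30 was second in Eed null mESCs, at 44.4 and 46.5 RPKM against 0.903 and 0.734 in wild type, 1.59 and 1.31 in K754M and 5.31 and 5.48 in K754R. In EBs it was ninth of the clone rows, at 12.0 and 15.5 RPKM in Eed null, 1.90 and 5.61 in wild type, 2.49 and 3.98 in K754M and 0 and 0.624 in K754R. The order of the rows thus differed between the stages below AL772216.38.

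AL772216.14 was listed at 0 in both wild type mESC libraries, at 34.9 and 33.4 RPKM in Eed null, 4.07 and 2.79 in K754M and 3.02 and 4.68 in K754R. In EBs it was 17.1 and 15.4 RPKM in Eed null, 0.271 and 2.40 in wild type, 0.532 and 0.785 in K754M and 0 and 0.267 in K754R. AL772216.1, also listed at 0 in both wild type mESC libraries, was 28.5 and 26.5 RPKM in Eed null, 0.770 and 0.634 in K754M and 2.58 and 4.79 in K754R. These 2 rows and AL772216.30 are the ones that passed the test in K754R mESCs.

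AL772216.33, a row not matched in GENCODE M21, was 31.6 and 45.5 RPKM in Eed null mESCs against 2.26 and 2.45 in wild type, and 17.7 and 14.1 in Eed null EBs against 3.17 and 3.37. AL772216.43, also not matched, was 32.9 and 32.8 RPKM in Eed null mESCs against 3.58 and 0.583 in wild type, and 20.8 and 22.3 in Eed null EBs against 0.755 and 3.46. AL772216.41 was 38.1 and 26.4 RPKM in Eed null mESCs against 0.716 and 3.50, and 18.3 and 18.6 in Eed null EBs against 1.51 and 5.68. Rows without a place in GENCODE M21 were thus among the highest of the clone.

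Of the other placed rows, AL772216.2 was 28.2 to 32.8 RPKM in Eed null mESCs against 0 to 4.98 over the 12 other mESC libraries, and 8.59 to 14.7 in Eed null EBs against 0 to 5.52. AL772216.23 was 27.5 to 29.0 RPKM against 0 to 5.62 in mESCs, and 9.54 to 14.1 against 0 to 5.03 in EBs. AL772216.39 was 20.2 to 27.9 RPKM against 0 to 4.04, and 10.003 and 10.2 against 0 to 4.68. In these 3 rows, as in the ones above, the lowest Eed null library exceeded the highest of the rest at both stages. AL772216.34 and AL772216.36, the pair with 92% identity, had close levels: 20.6 to 21.7 and 22.0 to 23.7 RPKM in Eed null mESCs, and 5.33 to 7.74 and 5.44 to 7.85 in Eed null EBs. AL772216.8 (12.6 to 19.2 RPKM), AL772216.42 (9.82 to 18.1) and AL772216.3 (10.4 to 11.5) were lower in Eed null mESCs.

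Of the other rows with no match, AL772216.21 was 32.2 to 32.4 RPKM in Eed null mESCs and 18.1 to 19.1 in Eed null EBs, and AL772216.7 was 27.7 to 28.0 and 16.0 to 22.7. AL772216.12 was 23.4 to 24.5 RPKM in Eed null mESCs and AL772216.5 was 13.2 to 13.6, and in Eed null EBs they were 8.34 to 10.7 and 3.57 to 3.85. AL772216.35 was 5.68 to 7.61 RPKM in Eed null mESCs and 2.98 to 3.86 in Eed null EBs, and AL772216.28 was 1.76 to 3.41 and 5.16 to 5.23. AL772216.28 and AL772216.31 were the 2 rows with a higher group mean in Eed null EBs than in Eed null mESCs.

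In Eed null mESCs the 26 rows that reached 5 RPKM lay between 1.76 and 67.6 RPKM, and in each of them both Eed null libraries were above all 12 other mESC libraries. In Eed null EBs they lay between 2.98 and 36.7 RPKM, again above all 12 other EB libraries in each of the 26 rows. The highest value outside Eed null was 10.3 RPKM in mESCs, for AL772216.7 in a K754R library, and 20.7 in EBs, for AL772216.38 in pair A. Of the 26 rows, 24 had their highest group mean in Eed null mESCs and 2 in Eed null EBs. Only 6 of the 26 reached a group mean of 5 RPKM outside Eed null. The rest were kept through the Eed null groups alone, so the place of Eed null above the others was partly fixed by the cut-off. It is a description, and the share of all rows with that order was not counted.

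**Figure D4:**
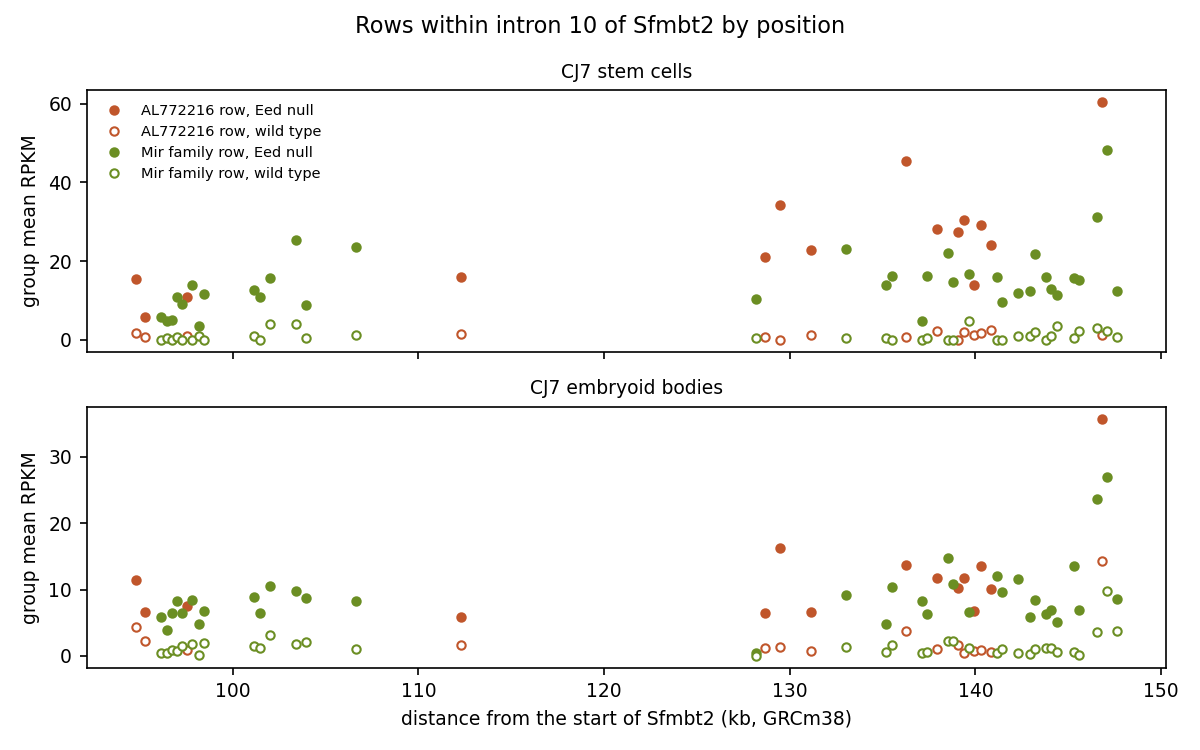
Group mean RPKM of the 15 placed clone rows and of 36 rows of the miR-297, miR-466, miR-467 and miR-669 families against distance from the start of Sfmbt2 in kb (GRCm38), for CJ7 Eed null (filled) and wild type (open) cells at each stage. Rows of both kinds lie in intron 10, and AL772216.38, at 147 kb, is the highest clone row, at 60.3 RPKM in Eed null stem cells.

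The tables hold 79 rows named Mir297, Mir466, Mir467 or Mir669. GENCODE M21 placed 36 of them in the same intron, between 96.2 and 148 kb from the start of Sfmbt2, and 8 elsewhere in the genome, and 35 were not matched. Pooled over the 36 rows in the intron, the level was 15.6 and 14.7 RPKM in Eed null mESCs against 1.52 and 0.460 in wild type, and 8.41 and 9.90 in Eed null EBs against 0.831 and 2.31. It was 2.19 and 2.23 RPKM in K754R mESCs and 0.178 and 0.489 in K754R EBs, so in Eed null and K754R the named microRNA rows of the intron lay above wild type and below it in the same libraries as the clone rows. In K754M mESCs they were at 0.84 and 0.80 RPKM, between the 2 wild type values. The clone rows were above both wild type libraries there, in K754M library 2 by less than counting error. Per unit of Sfmbt2 the named rows were at 0.231 and 0.223 in Eed null mESCs against 0.218 and 0.0829 in wild type, and at 0.158 and 0.165 in Eed null EBs against 0.247 and 0.381. The Eed null libraries were thus again above wild type in mESCs and below it in EBs, but in mESCs 1 wild type library lay close to them. The 8 rows placed elsewhere had 2 to 22 reads in all per library, with a mean of 0.245 RPKM in Eed null mESCs against 0.490 in wild type and 0.328 in Eed null EBs against 0.473.

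A row was called at an adjusted p below 0.05 in limma's moderated test of log2(RPKM + 0.5), adjusted by Benjamini-Hochberg over all rows tested, and "rose" and "fell" are used for such rows. Testing needed 0.25 RPKM in 2 or more of the fitted libraries, which 27 of the 43 clone rows did in each CJ7 and CCE EB fit and 25 in CCE mESCs. A row that passed this filter only through its Eed null libraries had to differ there. The CJ7 comparisons of a stage share the 2 wild type libraries, and each is given on its own. Those that did not select the rows are therefore not independent of those that did.

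In the comparisons that selected the rows, Sfmbt2 was higher in Eed null mESCs by 3.32 ± 0.25 (log2, standard error, n = 2 per group) and 24 of the 27 clone rows passed as higher, where 5.32% of all rows did. In Eed null EBs Sfmbt2 was higher by 3.50 ± 0.25 (n = 2 per group) and 25 of the 27 clone rows passed as higher, where 19.2% of all rows did. In K754M mESCs Sfmbt2 differed by -0.20 ± 0.25 (n = 2 per group) and none of 27 clone rows was called, with 0% of all rows called by limma and 6 clone rows at an unadjusted p below 0.05. The rows were selected on these same differences, and a row kept by the filter only through Eed null libraries had to differ there. These 3 counts are therefore not independent of the selection. They are no test of the clone rows, and the shares of all rows beside them show no enrichment. Nothing is read from these 3 counts. The median log2 difference of the clone rows was 3.99 in Eed null mESCs and 2.37 in Eed null EBs, beside 0.05 over all rows in each, and 0.11 in K754M mESCs, beside 0.03.

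In K754R mESCs Sfmbt2 was above wild type in both libraries without passing the test, and a few clone rows rose. Sfmbt2 differed by 1.04 ± 0.25 (n = 2 per group, limma adjusted p = 0.146). Of 27 clone rows, 3 rose and none fell (AL772216.1, AL772216.14 and AL772216.30), where 0.0761% of all rows rose. AL772216.30 rose by 2.16 ± 0.18 (limma adjusted p = 0.038), from 1 read in each wild type library to 6 and 10 reads. AL772216.14 was at 0 in wild type and had 4 and 10 reads in K754R, so its fitted difference of 3.10 depends on the pseudocount and no fold is given. In all, 25 of 27 clone rows lay above 0, with a median of 1.19 beside 0.01 over all rows. In 12 of the 28 rows with a mESC read both K754R libraries were above both wild type libraries, where 20.7% of the rows tested were. The same 2 wild type libraries served the Eed null and K754M comparisons that selected the rows. Low wild type values would favour selection and raise this difference too, so these counts and calls are not independent of the selection. The 3 calls were lost without any 1 of the 4 libraries. The summed level of 12 fibroblast markers was 444 to 1281 RPKM in K754R mESCs against 355 to 465 in wild type, and its part in the result was not tested.

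In K754R EBs Sfmbt2 and part of the clone rows fell. Sfmbt2 fell by 1.53 ± 0.25 on the log2 scale (n = 2 per group, limma adjusted p = 0.0147), from 968 and 1778 reads in wild type to 285 and 418. Of 27 clone rows 10 fell and none rose, where 4.85% of all rows fell, and the median difference was -1.36 beside 0.01 over all rows. AL772216.38 fell by 2.24 ± 0.25 (limma adjusted p = 0.005), from 32 and 49 reads to 8 and 6. The others were AL772216.1, AL772216.4, AL772216.16, AL772216.18, AL772216.30, AL772216.31, AL772216.33, AL772216.40 and AL772216.41, which averaged 0 to 0.405 RPKM in K754R against 0.876 to 4.30 in wild type.

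The 9 of these rows other than AL772216.38 were read at very low levels in K754R EBs. AL772216.33 was 0.290 and 0.520 RPKM against 3.17 and 3.37 in wild type, and fell by 2.07 ± 0.26 (limma adjusted p = 0.007). AL772216.18 was 0.290 and 0.260 RPKM against 2.11 and 6.49. AL772216.41 was 0 and 0.248 RPKM against 1.51 and 5.68. Each of these K754R values stands for at most 2 reads. AL772216.4 was 0.276 and 0 RPKM against 2.77 and 2.47. AL772216.31 was 0 and 0.292 RPKM against 2.96 and 1.46. AL772216.1 was 0 and 0.303 RPKM against 0.924 and 2.42. AL772216.16 (1.26 and 0.494 RPKM in wild type) and AL772216.40 (0.628 and 1.23) were listed at 0 in both K754R libraries, so no fold is given for them. Of the 33 rows with a read, 20 had both K754R libraries below both wild type libraries, where 27.2% of the rows tested did, and none had both above.

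Several results limit the K754R EB calls. Without K754R library 1 or 2 or wild type library 2 the Sfmbt2 call was lost (log2 difference -1.38, -1.67 and -1.14, limma adjusted p = 0.0878, 0.0685 and 0.0534) and 1, 2 and 2 of the 44 rows were called, and AL772216.38 alone was called whichever library was left out. The stem cell markers were lower in the same libraries: their summed level was 39.0 to 45.6 RPKM in K754R EBs against 235 to 296 in wild type, and 4 of 8 fell, among them Pou5f1 (4.53 against 49.0 RPKM), Nanog (5.89 against 47.9) and Zfp42 (2.45 against 7.94). None of the 8 was at 0. Over all 19300 rows tested in K754R EBs, 931 rose and 937 fell. The summed fibroblast markers were 121 to 132 RPKM against 102 to 115, and 6 of 11 tested rose. Early mesoderm markers summed to 80.0 to 99.9 RPKM in K754R EBs against 152 to 188, and 3 of 6 fell, Mesp1 (-2.69 ± 0.31), Mixl1 (-0.92 ± 0.19) and T. Extraembryonic endoderm markers summed to 241 to 249 RPKM against 169 to 203, and of 12 tested 3 rose (Pdgfra, Gata4 and Apob) and 1, Afp, fell. The part of these cells in the fall of Sfmbt2 was not tested.

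In K754M EBs no member was called. Sfmbt2 differed by 0.02 ± 0.25 (n = 2 per group, limma adjusted p = 0.991). None of 27 clone rows was called by limma, where 0.565% of all rows were, and 4 had an unadjusted p below 0.05. The median difference was -0.51 beside 0.01 over all rows, and 8 of 27 rows lay above 0. AL772216.38 was lower in both K754M libraries than in both wild type libraries (-1.02 ± 0.25, limma adjusted p = 0.131). That order held in 7 of the 33 rows with a read, where 23.7% of the rows tested had it. The reverse order held in 2, where 26% of the rows tested had it. The lower order is near its share over all rows and is no result about the clone rows.

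In CCE mESCs Sfmbt2 was higher in all 3 EloA null libraries than in all 3 wild type libraries, by 0.25 ± 0.08 (n = 3 per group, limma adjusted p = 0.179). None of the 25 clone rows tested was called, where 3.35% of all rows were, and 5 had an unadjusted p below 0.05. Their median difference was 0.31 beside -0.02 over all rows. The labels do not say that replicate numbers pair these libraries. Same-numbered libraries deviated together (r from 0.22 to 0.51), and on that ground alone the numbers were also used as pairs. With such a replicate block 3 clone rows were called: AL772216.38 (0.50 ± 0.10, limma adjusted p = 0.0433) and AL772216.42 (0.95 ± 0.20, 0.0439) as higher and AL772216.36 (-0.72 ± 0.15, 0.0447) as lower. In that paired fit 12.4% of all rows were called, 2288 of 18460, so 3 of 25 is near the background and is no result about the clone rows. Sfmbt2 did not pass in it (adjusted p = 0.0988). AL772216.38 was 2.91, 2.88 and 6.91 RPKM in EloA null against 2.17, 2.05 and 3.92 in wild type, and the groups overlapped. All 3 wild type libraries were deeper than all 3 EloA null libraries. Fibroblast markers summed to 179 to 553 RPKM in the wild type libraries, and those labelled EloA null had 299 to 784. The part of either in these calls was not tested.

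In CCE EBs no member was called in any of the 3 comparisons. Sfmbt2 differed from wild type by 0.51 ± 0.52 in pair A (n = 2 per group, limma adjusted p = 0.90) and by 0.62 ± 0.52 in pair B (adjusted p = 0.634), and pair B differed from pair A by 0.11 ± 0.52 (adjusted p = 0.937). The share of all rows called was 0% in pair A, 0.135% in pair B and 0.44% in pair B against pair A, and the clone rows at an unadjusted p below 0.05 numbered 2, 1 and 1. The spread within groups was wide: wild type library 1 had 1.89 RPKM of Sfmbt2 and 1.45 of AL772216.38, and library 2 had 5.57 and 18.0. The direction of Sfmbt2 turned without wild type library 1, to -0.16 in pair A and -0.05 in pair B. In every EB group library 2 was above library 1 for Sfmbt2. That fit thus set both libraries of a pair against the higher wild type library. Among same-numbered libraries both pairs were above wild type, pair A at 3.36 and 7.10 RPKM and pair B at 4.50 and 6.34.

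**Figure D5:**
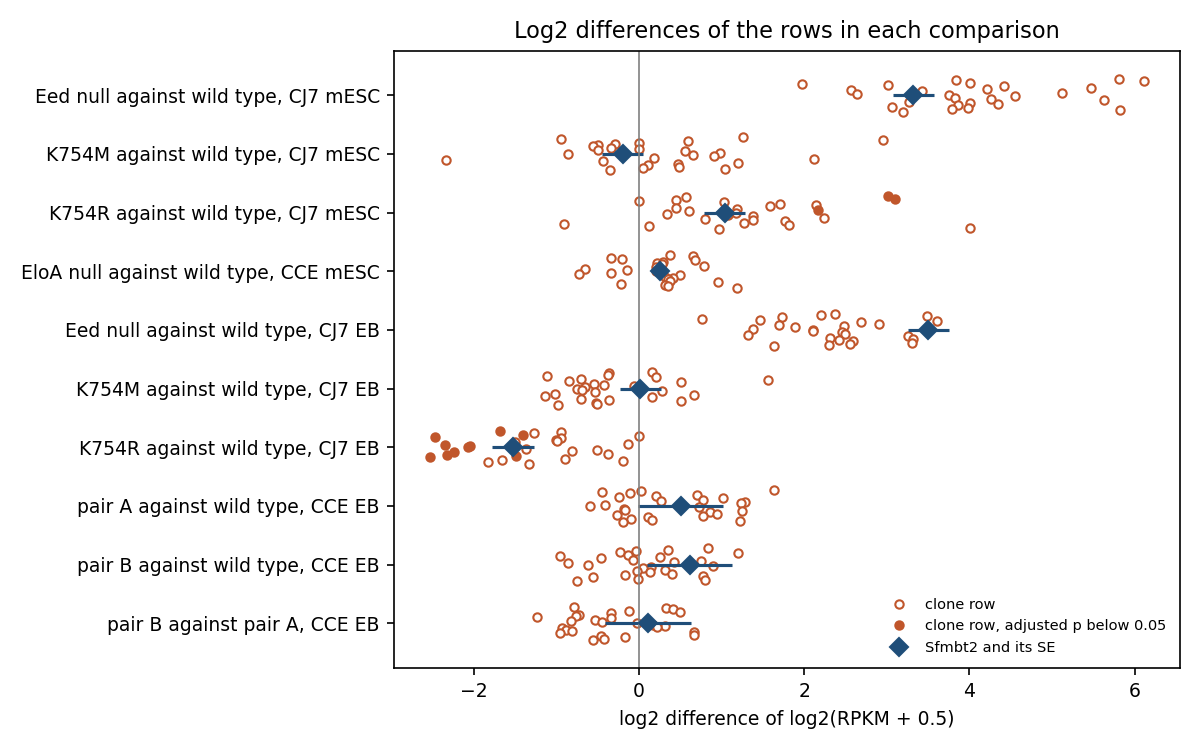
Log2 difference of each tested clone row (circles) and of Sfmbt2 with its standard error (diamonds) in the 10 comparisons, on the log2(RPKM + 0.5) scale; filled circles passed the test, and the 3 comparisons that selected the rows are shown with no test. The clone rows lie above 0 in both Eed null comparisons, and 26 of 27 lie below 0 in K754R embryoid bodies.

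Clone-named rows elsewhere, 1085 rows with names of the same form, were called in these shares. In K754R EBs 3.40% of 324 tested were called (4 higher and 7 lower, median 0.00), against 37% of the AL772216 rows, and in K754R mESCs 1.15% of 261 (none higher and 3 lower) against 11.1%. Of the 36 named microRNA rows of the same intron, 7 fell in K754R EBs (19.4%, median -0.82). None of the 36 was called in K754R mESCs, where their median difference was 1.02. The differences of these shares were not tested.

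The MBT-domain relatives and DNA-binding partners of Sfmbt2 mostly did not pass. Of 8 tested in K754R EBs 1 fell, Zfp42 (-1.55 ± 0.28, limma adjusted p = 0.0187), the YY1-related zinc finger gene also known as Rex1, and of 8 in Eed null EBs L3mbtl2 (1.09 ± 0.16) and Zfp42 (4.79 ± 0.28) rose and Mbtd1 fell (-0.84 ± 0.21). Scml2, another Polycomb protein with MBT domains, fell in EloA null CCE mESCs (-1.08 ± 0.13, limma adjusted p = 0.00927). Mbtd1 also fell in Eed null mESCs (-0.95 ± 0.20, limma adjusted p = 0.0364). None of the list passed in K754M, in K754R mESCs or in CCE EBs. Over all rows 30.4% were called in either direction in Eed null EBs.

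Neighbours of Sfmbt2 on chromosome 2 seldom passed. Of the 11 genes listed, 1 of 9 tested rose in Eed null mESCs and 1 of 8 in Eed null EBs, in each case Itih5, a protein that binds the matrix sugar hyaluronan (0.99 ± 0.20 and 0.86 ± 0.16). In K754R EBs 1 of 8 fell, the receptor gene Il15ra (-1.05 ± 0.22, 0.0959 against 0.740 RPKM, limma adjusted p = 0.0277). The median difference of the neighbours in Eed null was 0.03 in mESCs and 0.01 in EBs. Over all rows 5.32% rose in Eed null mESCs and 19.2% in Eed null EBs.

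Genes of microRNA processing did not pass in any mESC comparison by limma, with 0 at an unadjusted p below 0.05 in each of the 4. In Eed null EBs Dgcr8, a partner of the nuclear enzyme Drosha, rose by 0.44 ± 0.13, with Xpo5 (0.45 ± 0.14), which exports hairpins, and Tarbp2 (0.40 ± 0.12), a partner of Dicer, and Prkra, another partner of Dicer, fell (-1.20 ± 0.12), so 3 rose and 1 fell of 12, where 30.4% of all rows were called in either direction. None of 12 passed in K754R EBs, with a median of 0.21.

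Genes imprinted through maternal H3K27 methylation, as Sfmbt2 is, went different ways. In Eed null mESCs none of 5 rose and Gab1, an adaptor of growth factor signalling, fell (-0.76 ± 0.15, limma adjusted p = 0.0284). In Eed null EBs 3 of 5 rose, where 19.2% of all rows did: Phf17 (3.07 ± 0.11), Smoc1 (1.61 ± 0.20) and Gab1 (1.09 ± 0.30). In K754R EBs Phf17 fell (-0.56 ± 0.11) and Xist, the RNA of X inactivation, rose (31.6 against 0.257 RPKM, 5.41 ± 0.24, limma adjusted p = 0.000468). Of paternally expressed imprinted genes with a differentially methylated region, 7 of 18 rose and 2 fell in K754R EBs, led by Igf2 (2.57 ± 0.13) and Airn (1.84 ± 0.17). Over all 19300 rows tested there, 931 rose and 937 fell.

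Of the 11 PRC2 subunits, Eed fell in Eed null mESCs (-2.30 ± 0.25) and in Eed null EBs (-1.68 ± 0.10), and Suz12 fell in EloA null mESCs (-0.34 ± 0.04, limma adjusted p = 0.00972) and in K754R EBs (-1.05 ± 0.23, adjusted p = 0.0345). Eed also fell in K754R EBs (-0.42 ± 0.10, limma adjusted p = 0.0478), at 40.1 and 38.0 RPKM against 49.6 and 55.3 in wild type, so 2 of 11 fell there. In K754R EBs 937 of all 19300 rows tested fell. In Eed null EBs 4 rose, led by Phf19 (1.51 ± 0.18), and Eed was the 1 that fell. Over all rows 19.2% rose in Eed null EBs and 30.4% were called in either direction. Trophoblast markers are of a lineage in which Sfmbt2 is active. Their summed level was 266 to 268 RPKM in Eed null mESCs against 26.8 to 39.9 in CJ7 wild type. Of 9 tested 4 were higher (Krt18, Krt8, Cdx2 and Plac1), where 5.32% of all rows were. Most of the Eed null sum was Krt18 (153 and 152 RPKM) and Krt8 (89.6 and 86.4). Gata3 (0.226 and 0.420 RPKM) and Elf5 (0.0139 and 0.101) were low there. Prl3d1 was at 0 in Eed null, and Cdx2, Tpbpa, Prl3d1 and Plac1 were at 0 in wild type. In EBs the sums were 1238 to 1927 RPKM in Eed null and 1049 to 1226 in wild type, and 6 of 10 rose, where 19.2% of all rows did. Krt18 (966 and 601 RPKM in Eed null) and Krt8 (898 and 563) were again most of the sum. Markers of extraembryonic endoderm, another lineage, summed to 523 to 609 RPKM in Eed null EBs against 169 to 203. Of 12 tested 7 rose and 3 fell, so the list did not move as 1. Gata6 was 3.92 and 6.17 RPKM in Eed null EBs against 10.7 and 13.1 in wild type. Sox17 (7.48 and 7.72 against 13.5 and 15.0) and Foxa2 (5.23 and 6.29 against 9.72 and 9.11) were also lower. Stem cell markers summed to 854 to 921 RPKM against 235 to 296. Early mesoderm markers summed to 41.8 to 54.4 RPKM in Eed null EBs against 152 to 188, and 6 of 6 fell, where 2164 of all 19300 rows tested did. The part of these cells in the Sfmbt2 level was not tested.

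The rows most like Sfmbt2 were found by the Pearson correlation of log2(RPKM + 0.5) over the 14 mESC libraries and over the 14 EB libraries, ranked by the lower of the 2 values among 15496 rows tested in all fits. The highest was a clone row, AL772216.43 (r = 0.94 in both), followed by 1190002H23Rik (0.95 and 0.94), Stk31 (0.94 and 0.93), Pmaip1 (0.93 and 0.96) and Sord (0.93 and 0.93). The next clone row was AL772216.36, at rank 15. AL772216.38 was at rank 173 and AL772216.28 at rank 566, so the clone rows were not as a set the rows most like Sfmbt2. Pmaip1, which encodes the cell death protein Noxa, averaged 59.3 RPKM in Eed null mESCs against 17.9 in wild type, and 63.8 in Eed null EBs against 6.77 in wild type and 1.33 in K754R. These values are a description over libraries of which 2 at each stage, the Eed null pair, stand far above the rest. The clone rows were selected on Eed null values, so a high correlation of a clone row with Sfmbt2 is partly fixed by the selection.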

How the data were processed

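RNA-seq of 28 libraries was analysed from the tables of RPKM that the authors deposited, 1 for mESCs and 1 for EBs, and all columns were mapped to samples (0 per-sample columns were left over). Tools and build, per the submitters' processing notes, include STAR, CASAVA 1.7 and mm9, with no roles stated. Which program counted reads, on which annotation and with what strand setting was not given in the sources used here. RPKM values were turned into reads through the value of 1 read: library depth and row length together gave whole reads, and the lengths matched GENCODE M21 in all 15 matched rows. Of the small RNA values under 20 reads, 95.3 to 96.9% lay within 0.02 of a whole read.

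Tests used limma 3.58.1 (R 4.3.3) with a trend on log2(RPKM + 0.5), 1 fit for each of the 4 sets of line and stage, rows with at least 2 libraries at 0.25 RPKM, and Benjamini-Hochberg adjustment at 0.05. A fold on this scale understates the change of low rows. Python 3.11.15, pandas 2.3.3, scipy 1.17.1 and matplotlib 3.10.9 made the other tables and figures. The fits were tested on simulated data, for rows above a minimum wild type level and with the same spread in every row. Clone rows with few or no reads are outside that setting, so it is no check of their calls. In CCE mESCs same-numbered libraries deviated together in each of 3 pairs (r from 0.22 to 0.51), so the numbers were taken as pairing there. The labels do not state such a pairing.

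The members and gene lists were chosen with earlier results of these data known. Sfmbt2 and clone rows with a group mean of at least 5 RPKM were to be given in every library; the text gives the rows that the results turn on and the plot of row levels gives the rest. List genes named were called, at most 4 per list and comparison, and the 5 most similar rows were named.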

Additional observations from a re-analysis of the deposited data

Results flagged for a closer look

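The difference of K754R from CJ7 wild type went opposite ways at the 2 stages. For Sfmbt2 and the pooled clone rows, both K754R libraries were above both wild type libraries in mESCs and below both in EBs. Of all rows tested, 20.7% were above in mESCs and 27.2% below in EBs, each stage counted alone. Sfmbt2 did not pass the test in mESCs. The wild type mESC libraries, with 23 and 25 reads on the 15 placed rows, also served comparisons that selected the rows. For Sfmbt2 the log2 ratio of group means was 1.12 in mESCs and -1.91 in EBs, and for the pooled level of the 15 placed clone rows it was 1.46 and -2.53. The 2 tables were normalised separately, so this difference between the stages was not tested.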

How the results depend on the processing

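Counts of members called (of Sfmbt2 and the clone rows) moved with the settings as follows, and the cause was not tested unless the setting itself uses fewer libraries. In the 3 comparisons that selected the rows these counts are not independent of the selection, and nothing is read from them. In Eed null mESCs the count was 25, 16 with a pseudocount of 0.1, and 7 to 14 with 1 library left out. In K754M mESCs it was 0, 1 with a pseudocount of 0.1 and 2 in 1 fit of all libraries of the stage. In K754R mESCs it was 3, 1 with a pseudocount of 5, 5 in 1 fit of all libraries of the stage, and 0 without any 1 library or with a replicate block. In EloA null CCE mESCs it was 0 and 3 with a replicate block. In Eed null EBs it was 26, and 17 to 22 with 1 library left out. In K754M EBs it was 0, and 1 with the filter at 2 RPKM. In K754R EBs it was 11, 5 in 1 fit of all libraries of the stage, 3 with a pseudocount of 5, 4 with no filter, and 1 to 10 with 1 library left out. In pair B against pair A it was 0, and 1 with a replicate block. The block changed no other count by over 1.5 times; in CJ7 and in CCE EBs same-numbered libraries correlated at 0.01 to 0.43, and only 2 pairs exist there.

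For Sfmbt2 the K754R mESC difference of 1.04 passed in 1 fit of all libraries (1.04, limma adjusted p = 0.01) and was 0.76 to 1.32 with 1 library left out. The K754R EB difference was -1.91 to -1.14 with 1 library left out. In K754M EBs the sign turned with a pseudocount of 5 (-0.00267) and with median-ratio scaling (-0.0128), and the range was -0.36 to 0.40 with 1 library left out. In CCE EBs that range was -0.16 to 1.18 (pair A), -0.0538 to 1.29 (pair B) and -0.38 to 0.60 (pair B against pair A).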

Other observations

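In all 7 EB groups Sfmbt2 was higher in library 2 than in library 1, by 1.12 to 2.94 times, and so was the pooled level of the 15 placed clone rows in 7 of 7 groups. The labels do not say whether a number marks a shared day or batch.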
